A study of Homo sapiens with 24 samples.

Results

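SMARCA4 binding was mapped by chromatin immunoprecipitation and sequencing (ChIP-seq) in 4 libraries of RD, an established line of fusion-negative rhabdomyosarcoma, a tumour of cells with skeletal muscle character. These are all the SMARCA4 libraries among the 24 samples of the series, of which 14 have a peak list. They were chosen by their labels: 2 have the genotype control and 2 the genotype TWIST2 KD (knockdown), all come from a set called RD-2, and SMARCA4 was precipitated with an antibody to BRG1, another name of the protein. The labels do not say how TWIST2 was knocked down, what RD-2 stands for, or whether the replicates were separate cultures, so the p-values below measure only the spread between these libraries, which may be technical. No TWIST2 level was measured in these libraries, so the knockdown itself could not be checked. From another set of RD cells, RD-1, the peak lists of MYOD and of acetylated histone H3 lysine 27 (H3K27ac), each in 2 control and 2 TWIST2 KD libraries, and of Ty1 in 2 libraries with the genotype 3xTy1-TWIST2, served as reference maps.

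SMARCA4 is an ATPase of the SWI/SNF (BAF) complexes, which use ATP to slide or evict nucleosomes and so open enhancers and promoters to other factors. MYOD is a basic helix-loop-helix activator of the muscle programme that recruits these complexes to muscle genes. TWIST2 is a factor of the same family that is known to hold back muscle differentiation, and H3K27ac marks active enhancers and promoters.

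The 4 lists differed in length more within the control group than between the groups. They held 11835 peaks in control 1, 25013 in control 2, 12518 in KD 1 and 14676 in KD 2, which gives 18424 ± 9318 peaks in control and 13597 ± 1526 in KD (SD, n = 2 each). The exact two-sided permutation test over libraries gave p = 1, and with 2 against 2 libraries it cannot give less than 0.333. Control 2 alone set the direction, since without it the KD lists were longer than the control list by 1762 peaks.

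The lists also differed in depth and in the strength of the precipitation. The libraries held 46690705, 44810601, 36095336 and 41066933 tags (mapped reads) in the order control 1, control 2, KD 1 and KD 2, and 0.88%, 1.83%, 0.65% and 0.70% of them lay in peaks. The normalized tag count, which is the number of tags in a peak per 10000000 tags of the library, had a median of 7.07, 6.69, 4.99 and 4.38 per peak. Both KD libraries thus lay below both controls in depth, in the share of tags in peaks and in the height of a typical peak (p = 0.333 for each by the exact permutation test). Peak width, which HOMER set once per library, also moved with the groups and was 194, 159, 140 and 145 bp. Per 100 bp of peak the median signal was 3.64, 4.21, 3.56 and 3.02, so KD 1 came close to control 1 on that scale, and the median fold over input was 5.23, 5.56, 5.61 and 5.56. HOMER's fragment length was 82, 132, 140 and 144 bp in the same order, and its tag threshold for a peak was 18, 16, 13 and 14. It considered at most 2, 2, 1 and 2 tags per bp. The part of depth, width, precipitation strength and these settings in the differences below was not tested.

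**Figure D1:**
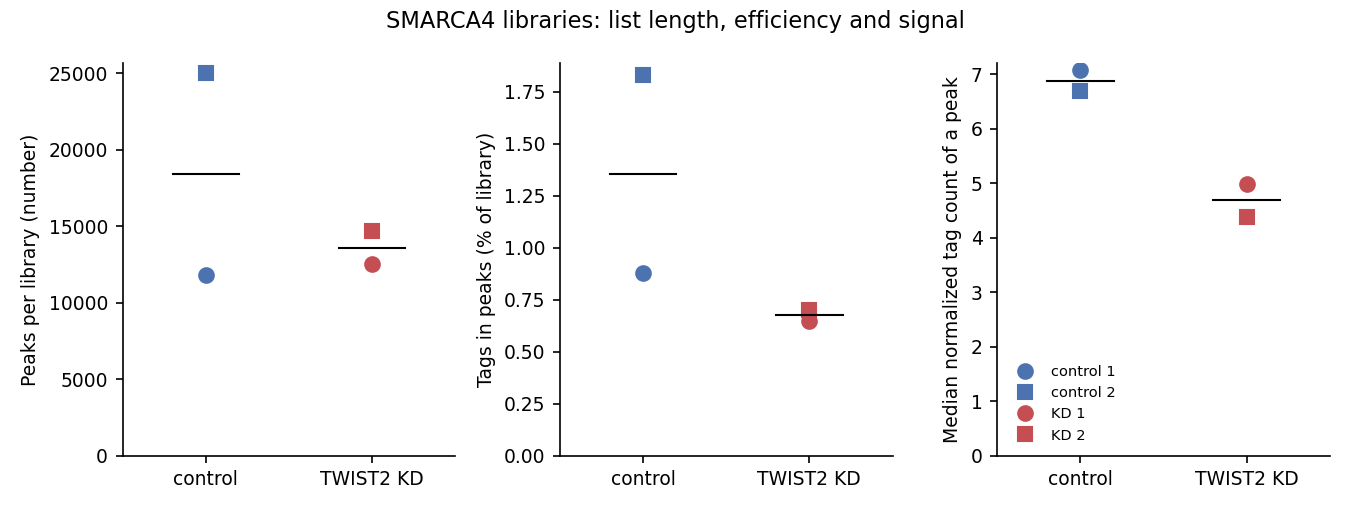
Peaks per library (left), percent of the library's tags in peaks (middle) and median normalized tag count per peak, in tags per 10000000 (right). Each point is 1 library, circles are replicate 1, squares are replicate 2 and black lines are group means. Control 2 stands apart in the left and middle panels with 25013 peaks and 1.83% of tags in peaks, and in the right panel both KD libraries, at 4.99 and 4.38, lie below both controls.

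To compare positions, each peak was set to 200 bp around its centre (100 bp to each side) and overlapping peaks were merged, which gave 46962 regions. Most regions were found once: 34048 (72.5%) had a peak in 1 library, and 590 (1.26%) had a peak in all 4. Regions called control-only, with a peak in each control and none in a KD library, numbered 3246, and KD-only regions, defined the other way round, numbered 981, a ratio of 3.31. With the 4 lists trimmed to the same number of peaks, 11835, the counts were 2029 and 1086. Leaving out KD 1 reversed the order of the counts, to 4352 control-only and 9759 KD-only regions, as did leaving out KD 2, to 4130 and 7336, since the class then needs a peak in only 1 KD library. Without control 1 the counts were 17850 and 1197, and without control 2 they were 7869 and 1657. No test was made of these counts.

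The controls resembled each other more than the KD libraries did. Control 1 and control 2 shared 5869 regions, 49.6% of control 1 and 23.5% of control 2. KD 1 and KD 2 shared 2485 regions, 19.9% of KD 1 and 16.9% of KD 2. Each KD library shared more regions with control 2, the longest list, than with the other KD library: 4407 for KD 1, which is 35.2% of it, and 4115 for KD 2, which is 28.1% of it.

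**Figure D2:**
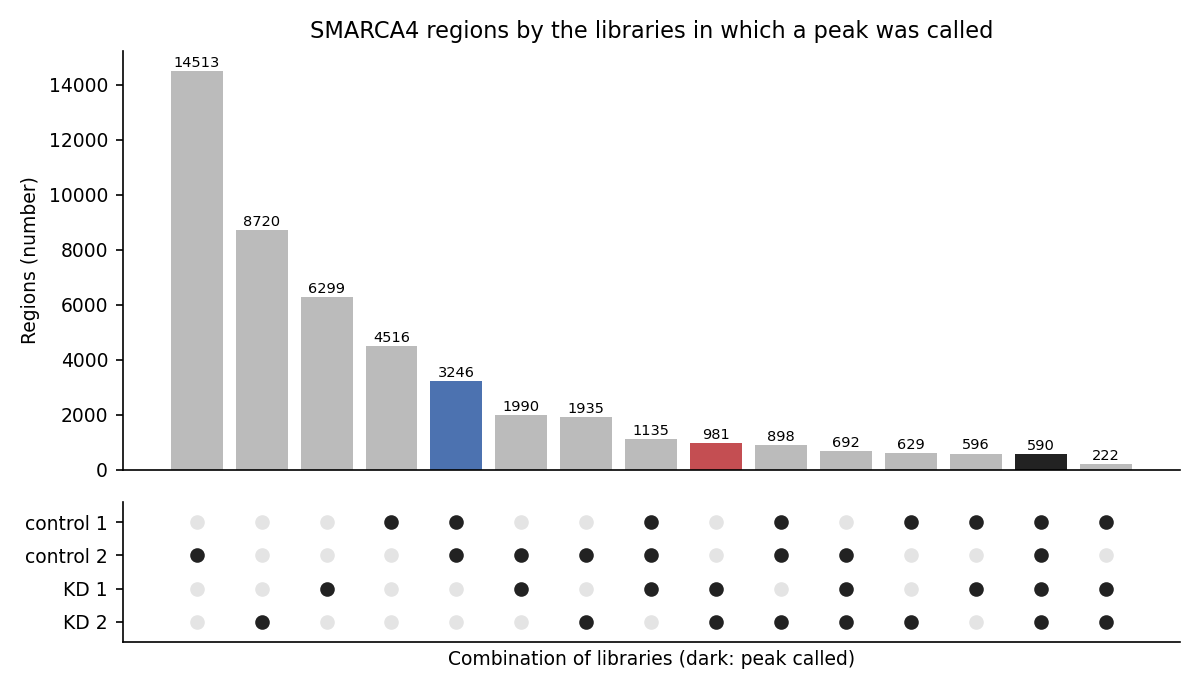
Number of SMARCA4 regions (bars) for each combination of libraries in which a peak was called (dark dots below the bars). Single-library combinations are the tallest 4 bars, from 14513 regions for control 2 alone to 4516 for control 1 alone. The blue bar is control-only (3246), the red bar KD-only (981) and the black bar all 4 libraries (590).

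Strong regions were found again in the other group more often than weak ones. Of the 5869 regions with a peak in both controls, 55.3% had no peak in either KD library, from 70.8% in the quintile of these regions with the lowest mean signal to 47.1% in the quintile with the highest. Of the 2485 regions with a peak in both KD libraries, 39.5% had no peak in either control, from 59.6% in the lowest quintile to 21.5% in the highest. So even among the strongest regions of both controls a KD peak was often missing, and the deposited lists hold no tag count where no peak was called. A region without a peak is therefore not shown to lack SMARCA4.

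The strongest region shared by all 4 libraries lay at chr2:210636379-210636612 (hg19). Its normalized tag count was 44.5 and 55.6 in the controls and 20.8 and 18.0 in the KD libraries. Both KD values thus lay below both controls, as at 495 (83.9%) of the 590 such regions. The region held the highest or second highest peak of each list. A MYOD peak was present there in all 4 RD-1 MYOD libraries, and no H3K27ac or Ty1 library had a peak. Another region at chr2:217236955-217237195 came next, with 35.8 and 52.7 in control and 18.6 and 17.5 in KD, and carried MYOD and H3K27ac in every library but no Ty1. At the other 4 regions named by the same rule, chr8:31880806-31881099, chr2:219757505-219757723, chr2:224466969-224467205 and chr10:103600981-103601206, control values lay between 24.3 and 33.0 and KD values between 11.9 and 15.8. Both Ty1-TWIST2 libraries had a peak at 3 of these 6 regions and all 4 MYOD libraries at 4 of them. Over all 590 regions with a SMARCA4 peak in all 4 libraries these shares were 44.6% and 58.0%.

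The 6 strongest control-only regions all sat in chromatin that was acetylated in both genotypes. At chr7:101030107-101030381 the normalized tag count was 25.5 in control 1 and 27.4 in control 2, and MYOD, H3K27ac and Ty1 peaks were present in every RD-1 library. The region at chr1:33899492-33899693 had 21.2 and 26.8, and there the peak of control 2 stood 67.3-fold over its input against 7.47-fold in control 1. The other 4 were chr1:144931690-144931924, chr8:31677582-31677784, chr10:79708968-79709195 and chr10:124607906-124608170, with values from 18.4 to 24.8. H3K27ac was called in all 4 of its libraries at 6 of 6, and MYOD in both of its KD libraries at 4 of 6. Over all 3246 control-only regions these shares were 73.5% and 46.6%.

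The 6 strongest KD-only regions were lower in signal than the control-only ones. Chromosome 9 held 4 of the 6, but 3.98%, 4.37%, 4.27% and 3.90% of all peaks in the 4 lists, with no excess in KD. The highest, chr9:109561554-109561813, had a normalized tag count of 12.5 in KD 1 and 10.7 in KD 2. MYOD was called there in all 4 of its libraries, whereas H3K27ac was called in both KD and in neither control library. At chr9:110039271-110039511 (10.5 and 9.01) MYOD was called in each KD library but in no control library, and at chr9:123627449-123627653 (10.8 and 7.55) no H3K27ac peak was called in any library. The remaining 3, chr7:98023799-98024016, chr2:210479756-210480028 and chr9:127595050-127595296, had values from 8.28 to 10.7. All 6 had MYOD in both KD libraries and 5 had H3K27ac in both KD libraries, against 4 and 2 in both control libraries. Over all 981 KD-only regions, the KD sets of MYOD and H3K27ac were present at 52.0% and 69.5%, and the control sets at 33.6% and 48.8%. None of the 6 KD-only or the 6 control-only regions stayed in its class when peaks had to be 8-fold over input in place of the authors' 4-fold.

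Signal could be compared directly at the 590 regions with a peak in all 4 libraries. The median normalized tag count there was 8.78 in control 1, 9.60 in control 2, 5.82 in KD 1 and 5.84 in KD 2. The median difference, KD minus control, was -0.57 on the log2(normalized tag count + 1) scale, a fold of 0.674. At 495 regions (83.9%) both KD values lay below both control values and at 13 (2.20%) above them. By limma with Benjamini-Hochberg adjustment at 0.05, 397 regions (67.3%) were lower in KD and 3 (0.508%) higher. Each test has only 2 residual degrees of freedom. By limma's estimate the prior degrees of freedom were infinite, so the spread was taken from a trend over mean signal. The limma p-values therefore do not use a region's own spread.

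This lower signal was shared by most regions and depended on the scale. With each library centred on its own median, limma called 18 regions (3.05%) lower and 25 (4.24%) higher, with 118 (20%) at an unadjusted p under 0.05. With the signal expressed per 100 bp of peak width, limma called 0 in either direction, 100 regions (16.9%) had an unadjusted p under 0.05, and the median difference was -0.28. On the tags behind the values, edgeR's quasi-likelihood test with TMM scaling called 0 lower and 5 higher (0.847%), with 75 at an unadjusted p under 0.05 (12.7%), and DESeq2 called 0 lower and 1 higher (0.169%), with 15 (2.54%). Both tools scale the libraries so that most regions stay level. The median fold over input at the 590 regions was 5.49, 6.56, 5.825 and 5.80 in control 1, control 2, KD 1 and KD 2. On that scale both KD libraries lay between the controls. Median input tags under a peak of each whole list were 6, 5.4, 2.9 and 2.8, and their part in the difference was not tested. Whether SMARCA4 was lower at these regions in general or the KD libraries were less enriched cannot be told apart here.

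**Figure D3:**
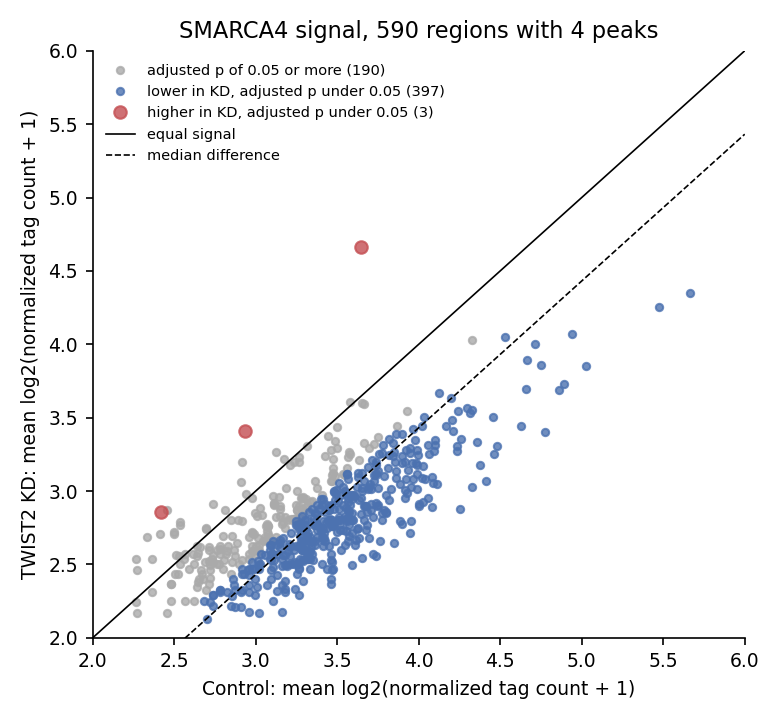
Mean log2(normalized tag count + 1) of the KD libraries (vertical) against that of the control libraries (horizontal) at the 590 regions with a peak in all 4 libraries, 1 point per region. Most points lie below the solid line of equal signal and along the dashed line at the median difference of -0.57, and the 3 red points are the regions called higher in KD (limma, adjusted p under 0.05).

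The regions with the smallest limma p among those lower in KD had 0.386 to 0.434 of the control signal (fold on the log2(normalized tag count + 1) scale). The first, chr1:26735131-26735344, had 18.0 and 18.1 in control and 8.59 and 4.63 in KD (log2 difference -1.37 ± 0.21 SE, limma adjusted p = 2.37e-08), and lay outside the TWIST2, MYOD and H3K27ac sets. At chr20:10200192-10200423 the values were 18.8, 21.9, 8.59 and 6.33, and at chr2:173117975-173118220 they were 22.9, 30.3, 8.59 and 10.7. In all 3 both KD values lay below both control values, as at 495 (83.9%) of the 590 regions tested. The other 3 were chr7:1854788-1855009, chr11:101785909-101786180 and chr5:141081804-141082015, with log2 differences from -1.30 to -1.20. All 6 were still called lower after centring on the library medians, with differences from -0.80 to -0.63. None was called per 100 bp of peak width, by edgeR or by DESeq2. MYOD was present in both genotypes at 5 of the 6, H3K27ac at 4 and TWIST2 at 2. Over all 590 regions tested these shares were 52.7%, 72.5% and 44.6%.

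Among regions higher in KD, 1 library carried the clearest case. At chr15:68132364-68132596 the normalized tag count was 14.8 and 8.93 in control, 15.0 in KD 1 and 39.2 in KD 2 (log2 difference 1.02 ± 0.21 SE, limma adjusted p = 3.35e-05). KD 1 was level with control 1, and without KD 2 the difference was 0.35 with a limma adjusted p of 0.185. The region is acetylated in all H3K27ac libraries and has no MYOD or Ty1 peak. At chr8:130527834-130528140 the values were 6, 7.36, 7.76 and 11.9 (0.47 ± 0.21 SE, limma adjusted p = 0.0355), and at chr3:1651139-1651424 they were 5.57, 3.35, 6.65 and 5.84 (0.44 ± 0.20 SE, limma adjusted p = 0.0395). The call at chr8:130527834-130528140 was lost without control 1 (0.35) and without KD 2 (0.20), and the call at chr3:1651139-1651424 without control 2 (0.14) and without KD 1 (0.36). Both of these calls were also lost with peaks set to 250 bp on each side of the centre (limma adjusted p = 0.0597 and 0.0716). None of the 3 was called per 100 bp of peak width, and DESeq2 called only the region on chromosome 15. By edgeR all 3 were called higher (edgeR adjusted p = 0.00606, 0.00744 and 0.0291), as they were by limma after centring on the library medians. The next 3, chr7:10468716-10468998, chr8:125093098-125093369 and chr19:32989565-32990084, did not pass, with differences of 0.42, 0.35 and 0.30 and limma adjusted p of 0.0503, 0.0805 and 0.146. In each of these 3 both KD values lay above both controls, as at 13 (2.20%) of the 590 regions tested. All 3 passed (limma) after centring on the library medians, where 25 of the 590 (4.24%) were called higher. The regions had been picked by these same signal values. Of the 6 regions, H3K27ac was called in the KD set at 4 and in the control set at 1. Over all 590 regions tested these shares were 79.2% and 76.4%.

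Regions with and without TWIST2 had close median differences. At the 263 with a Ty1-TWIST2 peak the median difference was -0.57 and 68.1% were called lower, and at the 327 without one it was -0.56 and 66.7%. H3K27ac did go with the size of the difference. At the 39 regions acetylated in the KD set and not in the control set the median was -0.30 and 12 (30.8%) were called lower, against -0.63 and 19 of 23 (82.6%) at regions acetylated in the control set alone. Control signal also differed between these classes, with medians of 6.43 and 7.81 in the former and 9 and 7.81 in the latter. MYOD showed a smaller step, with a median of -0.48 at the 67 regions bound in the KD set alone and -0.58 at the 74 bound in the control set alone. These are descriptions of classes, some of them small, and no test was made between them.

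The SMARCA4 peaks of both genotypes lay mostly in acetylated chromatin. A Ty1-TWIST2 peak, meaning one present in both Ty1 libraries, overlapped 33.0%, 32.7%, 30.7% and 29.7% of the peaks of control 1, control 2, KD 1 and KD 2. The control MYOD set overlapped 45.7% and 42.2% of control peaks and 34.6% and 29.9% of KD peaks, whereas the MYOD set of KD cells overlapped 42.7%, 39.3%, 41.1% and 36.8%. For H3K27ac the control set overlapped 69.8%, 68.4%, 61.7% and 51.5%, and the KD set 72.1%, 71.0%, 71.5% and 62.0%. The KD lists therefore lay below both controls against the maps of control cells, while KD 1 lay within the control range against both maps of KD cells. KD 2 was the lowest of the 4 in each of these shares. The exact permutation p was 0.333 for the TWIST2, control MYOD and control H3K27ac shares and 0.667 for the 2 KD sets, and over the 11 shares compared the adjusted values were 0.407 and 0.667.

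Peaks that carried all 3 marks had the highest median tag count in every list, and the highest median fold over input in control 2 alone. With each SMARCA4 list set against the maps of its own genotype, TWIST2, MYOD and H3K27ac were all present at 17.4%, 15.6%, 16.4% and 14.3% of peaks, with a median normalized tag count of 8.35, 8.70, 5.54 and 5.36. None of the 3 was present at 15.5%, 16.7%, 16.1% and 24.3%, and the median there was 4.71, 4.46, 4.16 and 3.90. The median fold over input was 5.19, 5.75, 5.41 and 5.48 with all 3 marks and 5.56, 5.56, 5.61 and 5.80 with none, so it was lower with all 3 in each library but control 2. The excess of unmarked peaks in KD 2 goes with its low shares above. SMARCA4 centres lay within 50 bp of a MYOD centre at 22.99%, 23.8%, 20.1% and 17.3% of peaks. H3K27ac domains with a SMARCA4 peak were wider than those without in each library, at 2624 against 2032 bp, 2544 against 1883, 2562 against 1910 and 2445 against 1925 (medians). Any overlap with a peak counted, which favours wider domains, so no conclusion is drawn from this direction.

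The control-only, KD-only and shared regions differed in their marks. A MYOD peak of control cells was present at 65.3% of the 590 shared regions, 52.5% of the control-only and 33.6% of the KD-only regions. A MYOD peak of KD cells was present at 64.1%, 46.6% and 52.0%. The control H3K27ac set covered 76.4%, 77.0% and 48.8% and the KD set 79.2%, 77.6% and 69.5%. Control-only regions thus overlapped the 2 H3K27ac maps about equally often, and KD-only regions overlapped the KD maps of both marks more often than the control maps. The KD maps are the larger ones, with 42481 against 31480 H3K27ac and 31683 against 28330 MYOD regions, and only the presence of a peak was scored. TWIST2 was present at 35.6% of control-only and 35.8% of KD-only regions, and at 44.6% of the shared ones.

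SMARCA4 peaks were next counted at the regions where MYOD itself differed between the genotypes. This comparison, and the one for H3K27ac below, was added after seeing the data. MYOD was called in both KD and neither control library at 8059 regions, and in both control and neither KD library at 4791. Of the KD-only MYOD regions 3.38%, 8.43%, 9.10% and 11.3% had a SMARCA4 peak in control 1, control 2, KD 1 and KD 2, and of the control-only MYOD regions 11.4%, 24.96%, 6.91% and 7.93%. Both KD lists covered a larger share of the KD-only MYOD regions than either control list, although the list of control 2 was the longest. At the 17971 regions with MYOD in all 4 of its libraries, SMARCA4 was also called less often in KD, at 23.9%, 44.2%, 20.1% and 20.2%, so that the KD mean was 0.593 of the control mean there, 0.409 at the control-only and 1.73 at the KD-only MYOD regions. Dividing the KD-only by the control-only share within each library gave 0.297, 0.338, 1.32 and 1.43, so the ratio was below 1 in both controls and above 1 in both KD libraries. On the log2 scale it was -1.66 ± 0.13 in control and 0.45 ± 0.08 in KD (SD, n = 2 each), a difference of 2.11 with p = 0.333 by the exact permutation test, the smallest it can give.

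H3K27ac gave similar values. A domain was called in both KD and neither control library at 11079 regions, of which 3.67%, 8.39%, 8.60% and 11.1% had a SMARCA4 peak, and in both control and neither KD library at 2352, of which 11.7%, 24.6%, 7.99% and 8.38% had one. At the 27442 domains called in all 4 H3K27ac libraries the shares were 26.7%, 49.3%, 24.9% and 24.6%, and the KD mean was 0.650 of the control mean, against 0.451 at the control-only and 1.63 at the KD-only domains. The ratio of the KD-only to the control-only share was 0.314, 0.341, 1.08 and 1.33, and the log2 difference between the groups was 1.87 (p = 0.333, exact permutation test). Over the alternatives run, the difference stayed between 2.02 and 2.56 for MYOD and between 1.72 and 2.66 for H3K27ac, including lists of equal length and each library left out. In the upper 0.5 of each list, however, the H3K27ac ratio of KD 1 was 0.940 and so below 1, and the MYOD ratios of the KD libraries were 1.02 and 1.06. The MYOD and H3K27ac maps come from RD-1 cells and were made without the SMARCA4 libraries.

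**Figure D4:**
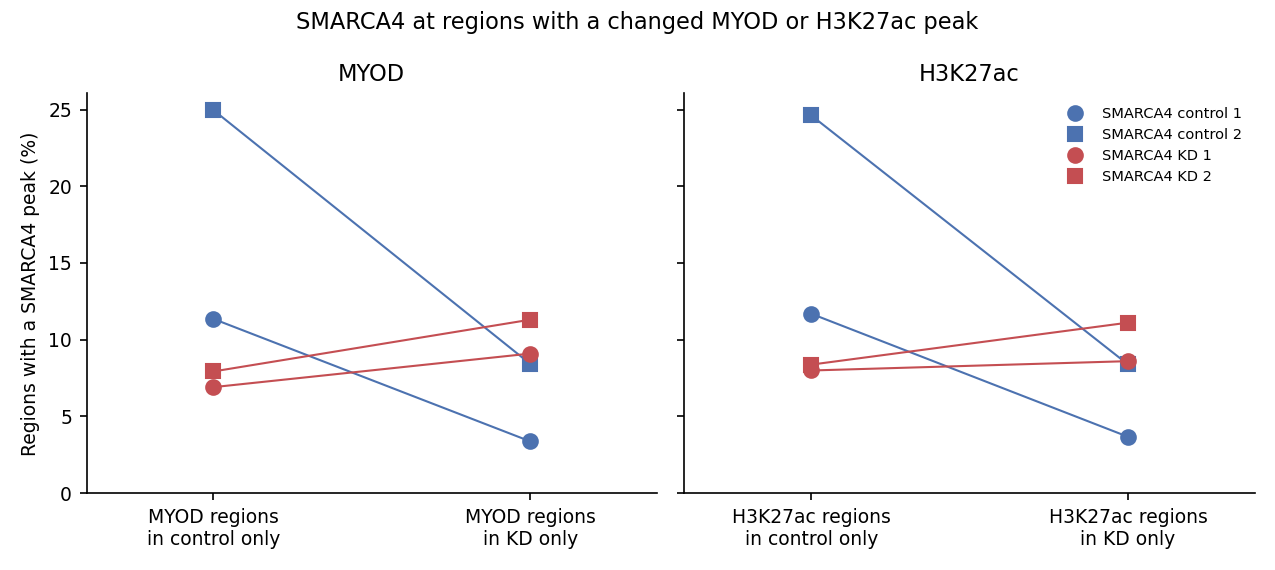
Percent of MYOD regions (left) and H3K27ac regions (right) with a SMARCA4 peak, for regions called in control alone and in KD alone. Each line joins the values of 1 SMARCA4 library (blue control, red KD, circles replicate 1, squares replicate 2). The 2 control lines fall from left to right, in MYOD from 11.4% to 3.38% and from 24.96% to 8.43%, and the 2 KD lines rise, from 6.91% to 9.10% and from 7.93% to 11.3%.

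From the side of SMARCA4, 116 of the 981 KD-only regions (11.8%) lay at a KD-only MYOD region and 18 (1.83%) at a control-only one. Control-only SMARCA4 regions showed the reverse, with 55 of 3246 (1.69%) at KD-only and 189 (5.82%) at control-only MYOD. KD-only SMARCA4 regions lay at KD-only H3K27ac in 146 cases (14.9%) and at control-only H3K27ac in 9 (0.917%). For control-only SMARCA4 regions the counts were 83 (2.56%) and 79 (2.43%). The H3K27ac sets differ in size, with 11079 KD-only and 2352 control-only regions, so like counts are not like shares of each set. Of all peaks of each list, in the same order, 3.47%, 3.83%, 7.80% and 8.61% lay at KD-only H3K27ac. At control-only H3K27ac the shares were 2.38%, 2.48%, 1.57% and 1.38%. Of the 590 shared regions, 3.90% lay at KD-only and 2.20% at control-only H3K27ac. Both marks were KD-only at 48 KD-only SMARCA4 regions (4.89%), at 7 control-only ones (0.216%) and at 3 of the shared ones (0.508%). In the KD-only and control-only classes most MYOD or H3K27ac regions under SMARCA4 were not of the changed kind: H3K27ac was called in all 4 libraries at 48.4% of KD-only and 73.5% of control-only SMARCA4 regions.

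SMARCA4 peaks were spread unevenly over the chromosomes, and chromosomes 13 and X differed between the groups by the widest margin. Chromosome 13 held 1.84% and 1.70% of control peaks and 0.447% and 0.879% of KD peaks, and chromosome X held 1.66%, 1.80%, 0.463% and 0.750%. The KD mean was 0.375 and 0.351 of the control mean (p = 0.333, exact permutation test over the 4 libraries), and these chromosomes were singled out after their values were seen. Both KD libraries lay below both controls on 6 of the 23 chromosomes (26.1%) and above both on 10 (43.5%), so groups that do not overlap were common. Peaks on chromosomes 13 and X had fewer tags than elsewhere, with a median of 4.28 to 4.39 normalized tags against 7.07 in control 1 and 3.41 to 3.65 against 4.38 in KD 2. In the RD-1 lists chromosome 13 held 2.298% and 2.32% of H3K27ac peaks in control and 2.76% and 2.72% in KD, and chromosome X 2.68% and 2.81% against 2.71% and 2.80%. For MYOD the values were 1.54% and 1.68% against 1.54% and 1.78% on chromosome 13, and 1.81% and 1.89% against 1.34% and 1.61% on chromosome X. H3K27ac was thus not lower in KD on either chromosome, and MYOD lay lower in KD on X alone, by less than SMARCA4 did. Input tags under a peak were also fewer there, with a median of 3 against 6 in control 1 and 1.9 against 2.8 in KD 2. Their median fold over input was higher than elsewhere in every library, for example 6.11 and 6.21 against 5.19 in control 1 and 7.38 and 7.12 against 5.54 in KD 2. The part of tag and input levels in the difference between the groups was not tested. Without both chromosomes the counts were 3084 control-only and 976 KD-only regions, and the MYOD difference above was 2.08.

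**Figure D5:**
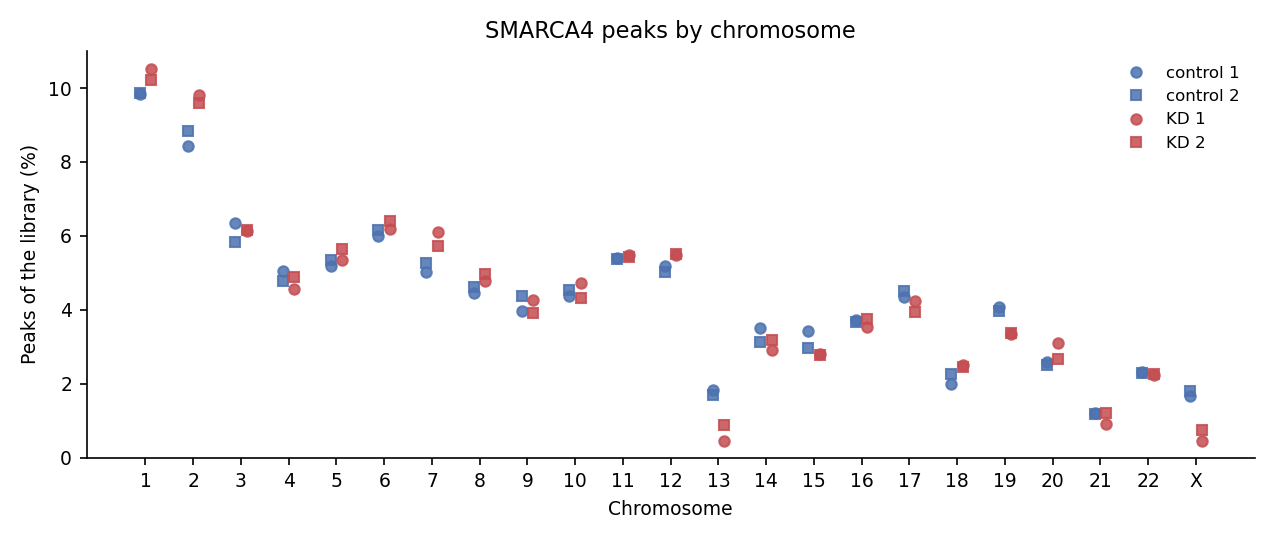
Percent of each library's SMARCA4 peaks on each chromosome (blue control, red KD, circles replicate 1, squares replicate 2). Groups do not overlap on 6 chromosomes where KD is lower and 10 where it is higher, and on chromosomes 13 and X both KD libraries, at 0.447% to 0.879%, lie below both controls, at 1.66% to 1.84%.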

How the data were processed

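Per the labels' protocols, chromatin was fixed with formaldehyde, sheared by sonication and made into libraries with 1 ng of precipitated DNA. Per the submitters' processing notes, the tools were HOMER 4.4, bedtools 2.29.2, Bowtie2 2.3.4.3 and SAMtools 0.1.19, and the build was hg19 (GRCh37). Per the file headers, HOMER called SMARCA4 peaks in each library against an input at a false discovery rate of 0.001, at least 4-fold over input and over the surrounding 10000 bp. The deposited signal is the normalized tag count per 10000000 tags. Other deposited columns hold counts of tags in IP and input that HOMER scales, a HOMER score, fold ratios, the fraction of tags placed around the peak centre and a p-value per peak, all the authors' own. Positions alone are deposited for H3K27ac, MYOD and Ty1.

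Peaks were set to centre plus and minus 100 bp and merged on 1 bp of overlap. Where a library had several peaks in a region the highest value was used. Signal at regions with a peak in all 4 libraries was tested with limma 3.58.1 (trend, pseudocount 1, Benjamini-Hochberg at 0.05). Alternatives were edgeR 4.0.16 and DESeq2 1.42.0 on tags recovered from the normalized value and the library total, of which 100% lay within 0.25 of a whole number. A mark set holds peaks found in both libraries of a group, by overlap with the 200 bp peak. Values per library were compared by exact two-sided permutation. Scripts were tested on simulated data. R 4.3.3 and Python 3.11.15 with numpy 2.4.6, pandas 2.3.3, scipy 1.17.1 and matplotlib 3.10.9 were used.

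Named regions were the 6 with the smallest limma p in each direction and the 6 with the highest mean signal among the shared, control-only and KD-only regions. The members, lists and tests were chosen with earlier results of these data known. Signal per 100 bp of peak width and the counts without chromosomes 13 and X were added after seeing the data. So was the whole comparison of SMARCA4 occupancy at the changed MYOD or H3K27ac regions, with all its alternatives. No annotation of the build was used, so regions are not tied to genes.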

Additional observations from a re-analysis of the deposited data

How the results depend on the processing

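Of the alternative values for the main results, 88 were scored as the same, 31 as moved and 2 as reversed, and the cause was not tested unless stated. For values per library, the same means the same direction only, since the permutation test cannot pass 0.05 with so few libraries. Their size could change: without KD 2 the difference in share at the KD H3K27ac set was -0.097 percentage points, against -4.84 with all 4. Counts of regions were scored as the same within 1.5 times of the main count. Peaks per library, KD minus control, ranged from -11416 to 1762 as each library was left out (-4827 with all 4), and the share of peaks at the KD MYOD set from -4.19 to 0.134 percentage points (-2.03 with all 4, reversed without KD 2). Control-only and KD-only regions numbered 228 and 98 with peaks at least 8-fold over input, 1949 and 525 in the upper 0.5 of each list, 2029 and 1086 with equal lists, and 22275 and 16000 when 1 library of a group sufficed. Leaving out each library gave 4130 to 17850 control-only and 1197 to 9759 KD-only regions, since fewer libraries then define a class. At shared regions, calls lower and higher numbered 18 and 25 after centring, 0 and 5 in edgeR, 0 and 1 in DESeq2, 0 and 0 per 100 bp of width, and 243 lower in the 295 regions at or above the median signal. They ranged from 294 to 945 lower and from 3 to 6 higher as each library was left out, where more regions qualified and a lone library was assumed to vary like the other group. The median log2 difference was 0.0074 after centring, 0.0068 in edgeR, -0.0017 in DESeq2, -0.39 with a pseudocount of 5 and -0.28 per 100 bp. With the replicate number as a block, 329 were lower and 0 higher, and all 3 higher calls were lost (limma adjusted p from 0.0548 to 0.138). The difference between replicates in control correlated with that in KD at -0.014 over 590 regions. This does not settle whether the libraries were made as pairs, which the labels do not say, so the block rests on replicate number alone. The block moved the count of lower calls by less than 1.5 times. With a median of 18 to 33 tags per peak, a peak missing from a list may lie just under the calling threshold.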

Other observations

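The highest peak of control 2 lay at chrX:77359406-77359564, with a normalized tag count of 95.3, and was absent from the other 3 SMARCA4 lists. It had 104.3 input tags, the most of any peak in that list, against a median of 5.4, and stood 4.11-fold over input, close to the 4-fold limit of the caller. H3K27ac was called there in all 4 of its libraries. The highest peak of KD 2, chr15:68132421-68132565, had 39.2, which was 2.18 times its next peak, and 5.7 input tags against a median of 2.8. The second peak of KD 1, chr8:36957620-36957760, had 19.4 and was also present in both controls, at 16.9 and 15.4, but not in KD 2. These peaks were chosen after their values were seen.

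Control-only regions gathered most in 3 windows of 1 Mb with 9 each and no KD-only region: chr14:55000001-56000000, chr14:105000001-106000000 and chr2:220000001-221000000. KD-only regions reached 3 with no control-only region at chr11:93000001-94000000, chr2:101000001-102000000 and chr2:188000001-189000000. In the chr2:220000001-221000000 window the lists had 18, 30, 13 and 5 regions in the order control 1, control 2, KD 1 and KD 2, and in the chr2:188000001-189000000 window 4, 3, 7 and 9. There are 3.31 times as many control-only as KD-only regions in all. The windows were picked for these differences and were not tested.

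Over the 590 shared regions the log2 signal of the controls correlated with Pearson r = 0.865 and Spearman rho = 0.830, that of the KD libraries with 0.700 and 0.623, and control with KD pairs with r of 0.678 to 0.685 and rho of 0.627 to 0.662. The regions are not independent replicates, and the libraries differ in depth.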
